A study of Mus musculus with 12 samples.

Results

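The 10 genes described here code for inflammatory cytokines, receptors through which leukocytes adhere to the vessel wall, and inhibitors that these signals induce. They were taken by symbol from a table of 19246 genes measured by RNA sequencing in mouse heart: the cytokines Il1b, Il6, Tnf and Il18, the adhesion receptors Icam1, Vcam1, Sele and Selp, and the feedback inhibitors Nfkbia and Socs3. All 10 were found, and 8 had enough counts to be tested. Il6 and Tnf did not. They were picked by name, with no threshold on a measured value.

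There were 12 libraries in 4 groups of 3. Control mice were untreated. AOS mice received alginate oligosaccharides, fragments of a seaweed polysaccharide, for 5 weeks at 10 mg/kg. Busulfan mice received a single dose of 40 mg/kg of busulfan, a DNA-alkylating drug used to clear the bone marrow and the germ line. The last group received that dose of busulfan and then AOS at 10 mg/kg for 5 weeks. The strain label of every sample reads IRC mouse, and the mice carried no stated mutation. The sources used here give neither their age nor whether each library stands for its own heart. The p-values therefore measure library-to-library spread only, which may be technical. Library totals lay between 9929772 and 13620815 estimated counts. The tissue label reads Cells, but the other labels name the heart, and 9 cardiomyocyte markers summed to between 23002 and 56986 FPKM (fragments per kilobase of gene, scaled to the library total) in every library.

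Interleukin-1 beta, interleukin-18 and tumour necrosis factor are made mainly by macrophages and activate the transcription factor NF-kappaB in neighbouring cells, while interleukin-6 acts through the kinases of the JAK family and the transcription factor STAT3. In endothelial cells NF-kappaB switches on E-selectin (Sele), P-selectin (Selp), ICAM-1 and VCAM-1, which in turn slow, stop and hold passing leukocytes. Both pathways induce their own brakes: Nfkbia codes for IkappaB alpha, which holds NF-kappaB in the cytoplasm, and Socs3 codes for an inhibitor of JAK signalling.

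The sequences before the start sites of Icam1 and Nfkbia are shown because these 2 genes had the smallest p-values of the 10 in the comparison of busulfan plus AOS with control. The windows are the 250 bases upstream of the annotated start (RefSeq, GRCm38.p6, the assembly of mm10), written along the gene's own strand, and capitals mark a motif. They lie at chr9:21015690-21015939 on the plus strand for Icam1 and at chr12:55492648-55492897 on the minus strand for Nfkbia.
Icam1: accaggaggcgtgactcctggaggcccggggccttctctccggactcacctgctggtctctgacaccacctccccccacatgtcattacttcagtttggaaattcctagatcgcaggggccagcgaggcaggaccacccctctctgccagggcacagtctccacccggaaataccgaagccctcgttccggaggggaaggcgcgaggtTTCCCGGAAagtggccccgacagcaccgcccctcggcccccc
Nfkbia: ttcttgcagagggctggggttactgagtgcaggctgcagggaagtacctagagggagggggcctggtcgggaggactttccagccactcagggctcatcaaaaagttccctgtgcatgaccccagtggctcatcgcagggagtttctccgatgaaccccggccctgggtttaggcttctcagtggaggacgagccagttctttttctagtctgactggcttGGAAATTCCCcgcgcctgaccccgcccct
The capitals in Icam1 are a match to the STAT-type palindrome TTCNNNGAA, and those in Nfkbia a match to the NF-kappaB consensus of 10 letters, both searched on both strands. Windows were found for 9 of the 10 genes, and Vcam1 had none. The palindrome was also present before a start of Sele (TTCCCAGAA) and of Socs3 (TTCTTAGAA), giving 3 of 9 genes, against 7.02% of 32851 windows of all genes. The NF-kappaB consensus was present in Nfkbia and in Il6 (GGGATTTTCC), 2 of 9, against 3.9% of all windows. A match describes letters only, and the windows of Sele and Socs3 lie inside the longest annotated span of those genes.

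Icam1 (gene 15894, mm10 chromosome 9, 21015940 to 21028814) codes for the receptor that arrests leukocytes through their beta-2 integrins. It was at 5.20, 7.42 and 6.11 FPKM in control replicates 1 to 3, at 5.65, 13.8 and 6.98 with AOS, at 6.63, 7.94 and 7.36 with busulfan, and at 17.6, 12.1 and 12.8 with busulfan plus AOS. All 3 libraries of busulfan plus AOS lay above all busulfan and all control libraries, and AOS replicate 2 lay among them. The mean was 14.2 ± 2.97 FPKM with busulfan plus AOS, 7.31 ± 0.656 with busulfan and 6.24 ± 1.12 in controls (SD, n = 3 each). The log2 fold change was 0.99 ± 0.24 (SE) for busulfan plus AOS against control and 0.84 ± 0.24 against busulfan. Neither passed the threshold of 0.05 over all 14687 genes tested, with Benjamini-Hochberg adjusted p of 0.077 and 0.469 in edgeR's quasi-likelihood test.

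Vcam1 (gene 22329, chromosome 3, 116110020 to 116129688) binds the alpha-4 integrins of monocytes and lymphocytes. It was at 5.35, 9.91 and 8.39 FPKM in controls, at 7.54, 20.9 and 7.73 with AOS, at 6.34, 9.51 and 6.85 with busulfan, and at 19.0, 11.2 and 11.4 with busulfan plus AOS. The busulfan plus AOS libraries again did not overlap with control or busulfan libraries, but the highest library of the 12 was AOS replicate 2. The log2 fold change of busulfan plus AOS was 0.61 ± 0.34 (SE) against control and 0.77 ± 0.34 against busulfan (edgeR adjusted p = 0.233 and 0.469).

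Selp (gene 20344, chromosome 1, 164115264 to 164150026) codes for P-selectin, which is stored in endothelial cells and platelets and catches rolling leukocytes. It was low, at 0.120, 0.460 and 0.500 FPKM in controls, 0.310, 2.15 and 0.640 with AOS, 0.250, 1.72 and 0.360 with busulfan, and 2.31, 1.77 and 1.46 with busulfan plus AOS. In the AOS and the busulfan groups 1 library each, replicate 2, reached the range of busulfan plus AOS. These were also the libraries of their groups with the most adipocyte marker RNA, with a mean log2 CPM (counts scaled to the library total) of 5.68 and 7.01 over 10 markers, against 0.35 to 3.13 in controls and 5.51 to 6.86 with busulfan plus AOS. The part of adipose tissue in the Selp values was not tested. Without busulfan replicate 2 the log2 fold change of busulfan plus AOS against busulfan went from 1.17 to 2.43, and that of busulfan against control from 0.99 to -0.28. The log2 fold change of busulfan plus AOS against control, 2.16 ± 0.80 (SE), was the largest of the 8 tested genes in any pair of groups by size (edgeR adjusted p = 0.108). Platelet markers had a mean log2 CPM of 2.85, 1.61 and 0.43 in controls, 0.0079, 3.33 and 0.73 with AOS, -0.41, 0.96 and 0.59 with busulfan and 1.02, 0.51 and 0.81 with busulfan plus AOS. They followed the order of Selp within the AOS and the busulfan groups and not among controls, where the library with the lowest Selp had the highest platelet level. The part of platelets in the Selp values was not tested. Sele (gene 20339, chromosome 1, 164039614 to 164058487), the selectin made by endothelium alone, stayed between 0.200 and 0.710 FPKM in all 12 libraries, with 10 to 38 counts. Its 95% confidence interval for busulfan plus AOS against control ran from -0.60 to 1.43 on the log2 scale, a range that includes 0.

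Nfkbia (gene 18035, chromosome 12, 55489409 to 55492647) had the highest level and the tightest controls of the 10. It was at 18.6, 19.0 and 20.1 FPKM in controls, at 21.3, 33.3 and 24.9 with AOS, at 23.0, 27.6 and 24.3 with busulfan, and at 42.8, 33.4 and 26.4 with busulfan plus AOS. Every treated library lay above every control library. The log2 fold change against control was 0.32 ± 0.15 (SE) with AOS, 0.29 ± 0.15 with busulfan and 0.64 ± 0.15 with both (edgeR adjusted p = 0.642, 0.52 and 0.077). Those 3 comparisons share the control libraries.

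Socs3 (gene 12702, chromosome 11, 117966079 to 117970336) was at 1.71, 3.35 and 2.21 FPKM in controls, 2.63, 4.78 and 2.45 with AOS, 1.65, 2.95 and 2.51 with busulfan, and 5.96, 3.85 and 4.31 with busulfan plus AOS. The order of libraries was like that of Icam1, with all of busulfan plus AOS above all busulfan and all control libraries. The log2 fold change of busulfan plus AOS was 0.77 ± 0.29 (SE) against control and 0.88 ± 0.29 against busulfan (edgeR adjusted p = 0.109 and 0.469).

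**Figure D1:**
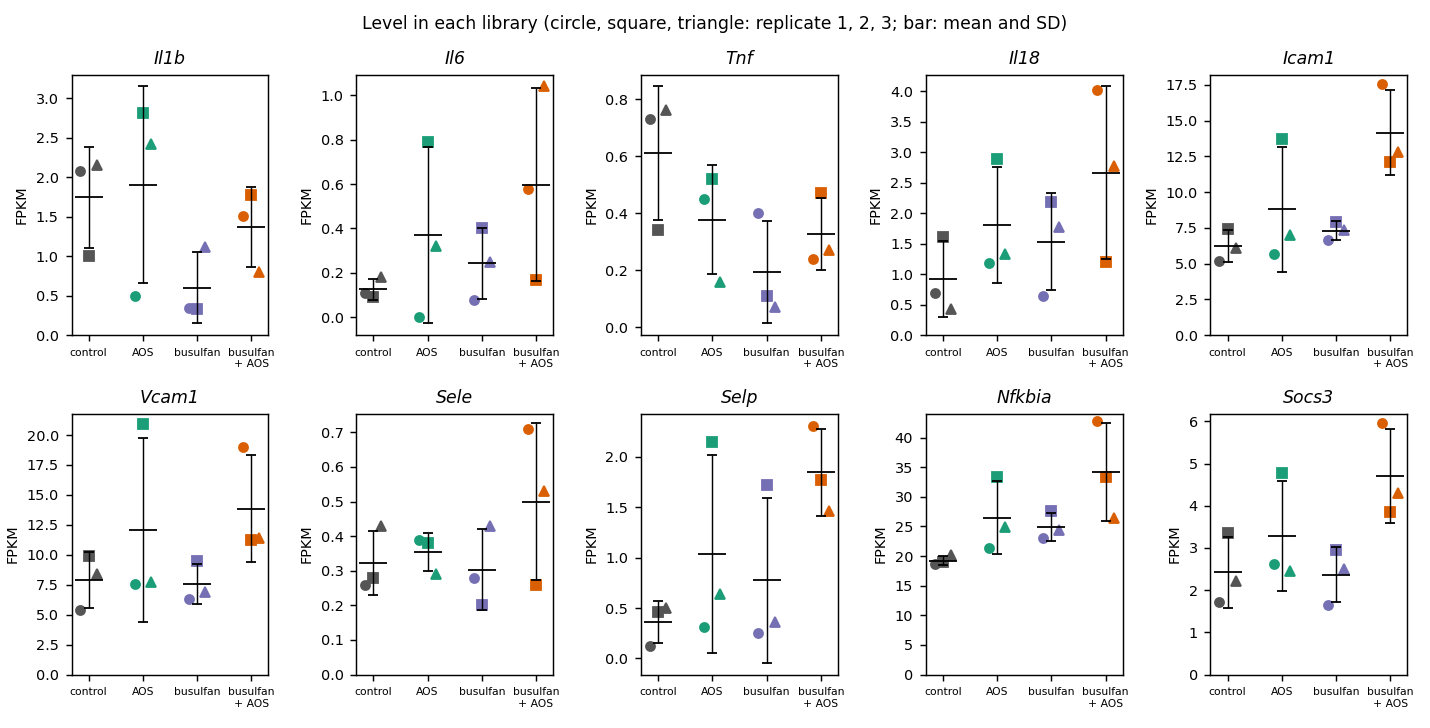
Level of each of the 10 genes in FPKM (vertical axis, linear) in the 4 groups (horizontal axis). Symbols are single libraries and bars the mean and SD of 3; Icam1, Vcam1, Selp, Nfkbia and Socs3 in busulfan plus AOS lie above all 3 controls, and AOS replicate 2 (green square) is the highest of its group for every gene but Sele.

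The cytokines themselves were scarce, and their pattern differed from gene to gene. Il1b (gene 16176, chromosome 2, 129364569 to 129371164) was at 2.08, 1.00 and 2.15 FPKM in controls, 0.490, 2.81 and 2.42 with AOS, 0.350, 0.330 and 1.12 with busulfan, and 1.51, 1.78 and 0.800 with busulfan plus AOS. It was the tested gene with the lowest fold change after busulfan alone: -1.66 ± 0.69 (SE) on the log2 scale (edgeR adjusted p = 0.453), with busulfan replicate 3 overlapping the controls. Platelet and neutrophil markers had a lower mean in the same comparison, 4 of 4 and 4 of 4 tested. Macrophage and monocyte markers had a higher mean there in 11 of 12 cases (median log2 fold change 0.20). The part of these cells in the result was not tested. Il18 (gene 16173, chromosome 9, 50554700 to 50581841) was at 0.700, 1.62 and 0.430 FPKM in controls, 1.18, 2.90 and 1.34 with AOS, 0.650, 2.18 and 1.78 with busulfan, and 4.03, 1.20 and 2.78 with busulfan plus AOS. Groups overlapped throughout, and the log2 fold change of busulfan plus AOS against control was 1.40 ± 0.55 (SE; edgeR adjusted p = 0.118).

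Tnf (gene 21926, chromosome 17, 35199367 to 35202007) was at 0.730, 0.340 and 0.760 FPKM in controls, 0.450, 0.520 and 0.160 with AOS, 0.400, 0.110 and 0.0700 with busulfan, and 0.240, 0.470 and 0.270 with busulfan plus AOS. These values rest on 1.21 to 12 estimated counts per library. Controls had the highest mean, 0.610 ± 0.234 FPKM (SD, n = 3), and their range overlapped that of every other group. Il6 (gene 16193, chromosome 5, 30013114 to 30019975) was listed at 0 in AOS replicate 1, where 3 counts, the limit a count of 0 allows, correspond to 0.256 CPM. Elsewhere it lay between 0.0800 and 1.04 FPKM, with at most 13 counts, and was highest in replicate 3 of busulfan plus AOS and next in AOS replicate 2. Limits of this kind cover counting error only.

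Ordered by group mean, 8 of the 10 genes were highest with busulfan plus AOS; the exceptions were Il1b, highest with AOS, and Tnf, highest in controls. Neighbouring groups in that order had overlapping ranges in all but 1 of 30 cases, the exception being Nfkbia in control and busulfan. For 3 genes, Icam1, Vcam1 and Socs3, the 4 highest libraries of the 12 were the 3 of busulfan plus AOS and AOS replicate 2. How many of all genes share these orders was not counted. With busulfan plus AOS, 30.5% of all genes were higher than in controls without overlap.

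The comparison of busulfan plus AOS with busulfan asks whether AOS given after the drug alters the heart. All 8 tested genes had a higher mean with AOS, against 50.2% of all genes, with a median log2 fold change of 0.81 against 0.0015 over all genes. In edgeR 0 of the 8 passed, against 0% of all genes, and 4, Icam1, Vcam1, Nfkbia and Socs3, had an unadjusted p under 0.05, against 10.2% of all genes. DESeq2 also called 0 of the 8, against 0.328% of all genes. Icam1, Vcam1 and Socs3 did not overlap between the groups, 3 of 8, against 15.3% of all genes that were higher without overlap.

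Against control, busulfan plus AOS had a higher mean in 7 of the 8 genes, against 53% of all genes, with a median log2 fold change of 0.71. The unadjusted p was under 0.05 in 32.8% of all genes, and 0.306% passed the threshold. Of the 8, 5 were at an unadjusted p under 0.05 (Il18, Icam1, Selp, Nfkbia and Socs3) and 0 passed in edgeR; DESeq2 called 3, Icam1, Selp and Nfkbia, against 16.4% of all genes in that tool. Icam1, Vcam1, Selp, Nfkbia and Socs3 were higher without overlap, 5 of 8, against 30.5% of all genes. Across 21 alternative settings Icam1 passed in 5 (adjusted p from 0.00616 to 0.258) and Nfkbia in 3 (0.00843 to 0.258).

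After busulfan alone, 4 of the 8 genes had a higher and 4 a lower mean, against 51% of all genes higher, with a median log2 fold change of 0.020. The 95% confidence interval of the busulfan effect ran from -0.38 to 0.67 for Icam1, from -0.93 to 0.60 for Vcam1 and from -0.75 to 0.54 for Socs3. In edgeR 0 of the 8 passed, against 0% of all genes, and Il1b alone was at an unadjusted p under 0.05, against 10.6% of all genes; DESeq2 called 0, against 0.331% of all genes. Only Nfkbia, of the 8, was higher without overlap, against 11.8% of all genes. With AOS alone, 7 of the 8 had a log2 fold change above 0, against 53.7% of all genes. Il1b, at -0.047, had a mean FPKM of 1.91 with AOS and 1.74 in controls. In edgeR 0 of the 8 passed, against 0% of all genes, and in DESeq2 0, against 0.0313%. An unadjusted p under 0.05 was reached by 0, against 6.92%. Nfkbia, 1 of 8, was higher without overlap, against 8.03% of all genes. Several of these values rested on 1 library: without AOS replicate 2 the log2 fold change of Icam1 against control went from 0.34 to -0.020, that of Vcam1 from 0.41 to -0.11, that of Selp from 1.32 to 0.35 and that of Socs3 from 0.30 to 0.036. Nfkbia went from 0.32 to 0.22, Il18 from 0.77 to 0.48, Il1b from -0.047 to -0.33 and Sele from 0.030 to 0.055.

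**Figure D2:**
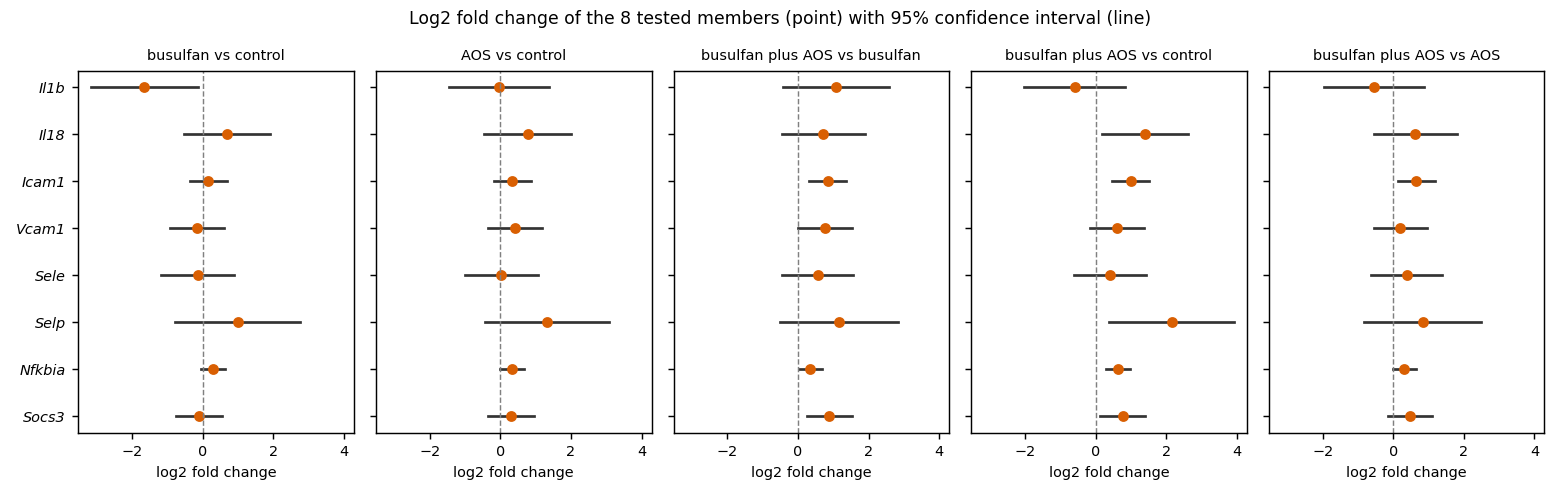
Log2 fold change (horizontal axis, points) with its 95% confidence interval (lines) for the 8 tested genes in the 5 pairs of groups, from the edgeR fit of all 12 libraries. Points lie on both sides of 0 for busulfan against control and all lie above 0 for busulfan plus AOS against busulfan, where the interval of Icam1 runs from 0.32 to 1.36.

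Busulfan given on top of AOS was measured by comparing busulfan plus AOS with AOS. Of the 8, 7 had a higher mean with both, against 49.2% of all genes, and 0 were higher without overlap, against 6.71%. Icam1 had a log2 fold change of 0.65 ± 0.23 (SE) and was the only one of the 8 with an unadjusted p under 0.05, against 9.42% of all genes. In edgeR 0 of the 8 passed (adjusted p = 0.455 for Icam1), against 0.0204% of all genes, and DESeq2 called 0, against 1.01%. Without AOS replicate 2 the log2 fold change of Icam1 was 1.01 (edgeR adjusted p = 0.0645), that of Vcam1 went from 0.19 to 0.72 and that of Selp from 0.83 to 1.80. Over both busulfan groups against both others, 6 libraries against 6, Icam1 had a log2 fold change of 0.40 ± 0.17 and Nfkbia of 0.30 ± 0.11 (SE; edgeR adjusted p = 0.263 and 0.21), and 0 of the 8 passed, against 0.157% of all genes. In that contrast 7 of the 8 had a higher mean, against 50.3% of all genes, and 3 (Il1b, which was lower, Icam1 and Nfkbia) were at an unadjusted p under 0.05, against 17.2%. Icam1 passed without AOS replicate 2, at 0.58 (edgeR adjusted p = 0.0443). Over both AOS groups against both others, all 8 had a higher mean, against 52.6% of all genes, 0 passed, against 0%, and 5 (Icam1, Vcam1, Selp, Nfkbia and Socs3) were at an unadjusted p under 0.05, against 17.3% of all genes. Whether the effect of busulfan depended on AOS was tested as an interaction, which 0 of the 8 and 0% of all genes passed, with 0 of the 8 and 2.94% of all genes at an unadjusted p under 0.05. The estimate was 0.50 for Icam1, with a 95% confidence interval from -0.23 to 1.24, and 0.58 for Socs3, from -0.32 to 1.48. Without AOS replicate 2 the interaction estimate was 0.86 for Icam1, 0.88 for Vcam1 and 0.84 for Socs3 (edgeR adjusted p = 0.646 each).

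Tissue around the ventricle was present in unequal amounts. Icam1, Vcam1 and Socs3 were highest in AOS replicate 2 and the libraries of busulfan plus AOS. For Selp, busulfan replicate 2 lay among these. These libraries had higher atrium, mesothelium and fibroblast marker levels than most others. The 10 atrium markers had a mean log2 CPM of 8.71 in AOS replicate 2 and of 8.66, 6.83 and 7.86 in busulfan plus AOS, against 2.47 to 6.22 with busulfan and 4.01 to 6.92 in controls. Their summed level ranged from 348 to 8116 FPKM in controls, 78.3 to 14466 with AOS, 56.7 to 2613 with busulfan and 3176 to 14812 with busulfan plus AOS, with Bmp10, an atrial growth factor, at 0 in all controls. All 10 had a higher mean with busulfan plus AOS than with busulfan. So did 7 of 7 mesothelium markers (median log2 fold change 1.35), 7 of 7 fibroblast markers (0.48) and 7 of 10 adipocyte markers (0.59). Against control these were 7 of 7 (2.48), 7 of 7 (0.35) and 10 of 10 (4.64). The 8 lung and airway markers summed to as much as 5564 FPKM with AOS and 2056 with busulfan plus AOS, against at most 106 in controls and 5.02 with busulfan. Cardiomyocyte markers had a lower mean with busulfan plus AOS than with busulfan in 9 of 9 cases, with a median log2 fold change of -0.38. The airway gene Scgb1a1 of AOS replicate 2 was found in AOS replicate 3 at 5.58% and in AOS replicate 1 at 0.331% of its level. The part of these tissues in the results was not tested, and the values given next do not separate it from treatment. In bulk tissue, fewer cells of a type and less RNA per cell cannot be told apart.

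Libraries with like atrium levels could be set side by side. Control replicate 2 and replicate 2 of busulfan plus AOS had atrium levels of 6.92 and 6.83. Icam1 was at 7.42 and 12.1 FPKM in these 2 libraries and Selp at 0.460 and 1.77. Vcam1 was at 9.91 and 11.2 FPKM and Socs3 at 3.35 and 3.85. AOS replicate 2 and replicate 1 of busulfan plus AOS had atrium levels of 8.71 and 8.66. There Icam1 was at 13.8 and 17.6 FPKM, Selp at 2.15 and 2.31, Vcam1 at 20.9 and 19.0 and Socs3 at 4.78 and 5.96. The genes that were furthest apart differed between these pairs of single libraries, which carry no test. With the atrium level as a covariate in edgeR, the log2 fold change of busulfan plus AOS against busulfan went from 0.84 to 0.35 for Icam1, from 0.77 to 0.084 for Vcam1, from 0.88 to 0.35 for Socs3, from 0.35 to 0.19 for Nfkbia and from 1.17 to -0.071 for Selp. Atrium levels were at most 6.22 with busulfan and at least 6.83 with busulfan plus AOS. In that comparison treatment and atrium level cannot be told apart. Against control, the value with the covariate was 0.62 for Icam1, 0.51 for Nfkbia, 0.36 for Socs3, 0.071 for Vcam1 and 0.97 for Selp.

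**Figure D3:**
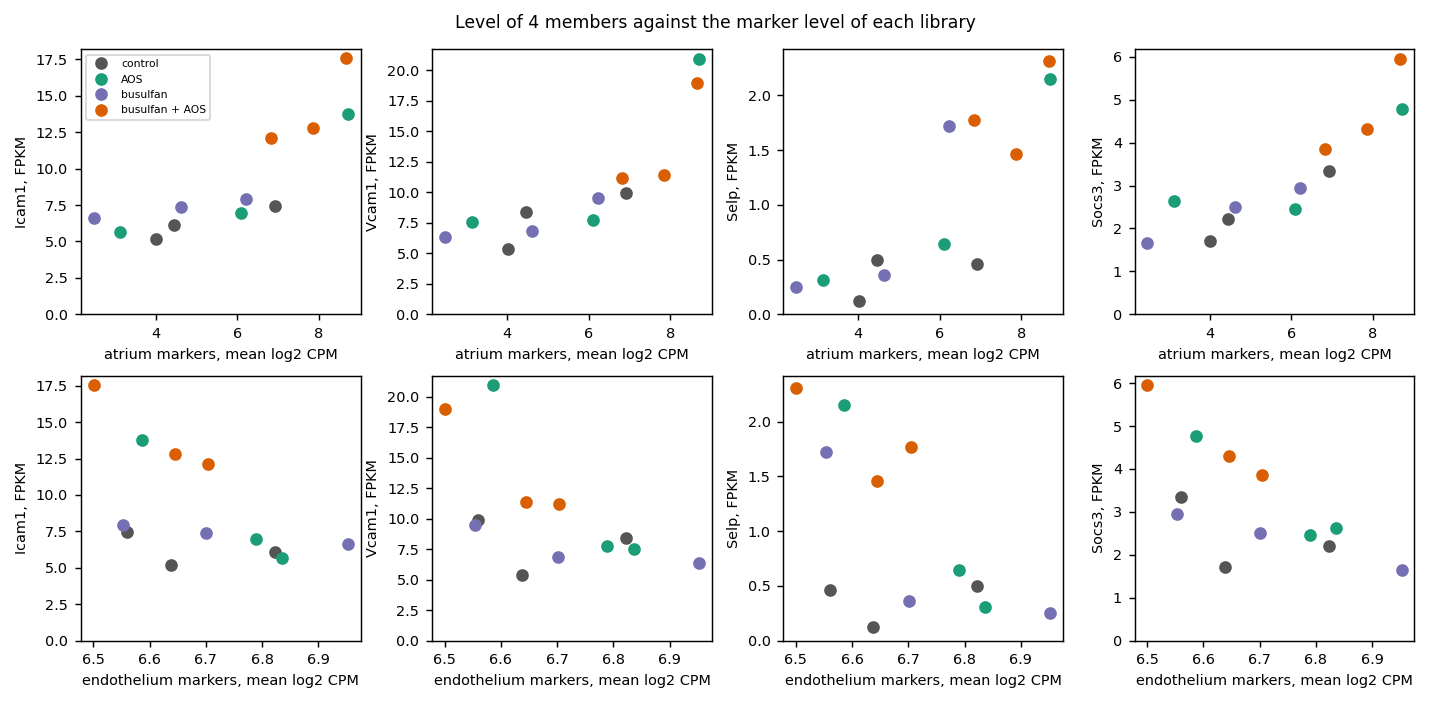
Level of Icam1, Vcam1, Selp and Socs3 (vertical axes, FPKM) against the mean log2 CPM of the 10 atrium markers (upper row) and of the 10 endothelium markers (lower row), with a point per library coloured by group. The 4 libraries with the highest Icam1 have atrium levels of 6.83 to 8.71, while endothelium levels stay between 6.50 and 6.95 in all 12.

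Endothelium is a main source of the adhesion receptors. The 10 endothelium markers summed to 352 to 409 FPKM in controls, 409 to 481 with AOS, 379 to 468 with busulfan and 428 to 446 with busulfan plus AOS, and none was at 0 in a whole group. With busulfan plus AOS, 5 of 10 were higher than with busulfan, with a median log2 fold change of -0.032. Macrophage and monocyte markers, from the cells that make most of the cytokines, summed to 325 to 375 FPKM in controls, 330 to 731 with AOS, 332 to 532 with busulfan and 670 to 862 with busulfan plus AOS. Of these 12 markers, 11 had a higher mean with busulfan plus AOS than with busulfan (median log2 fold change 0.71) and none was called. The part of either cell type in the results was not tested.

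Other genes of these pathways were read from 7 lists of 96 genes, of which 89 were tested. In edgeR 0 of the 89 passed in any of the 8 contrasts. For busulfan plus AOS against control, 34 of the 89 were at an unadjusted p under 0.05, against 32.8% of all genes, and 51 were higher without overlap, against 30.5% of all genes. Integrins and selectin ligands of leukocytes, the partners of the adhesion receptors, had the highest list median in that comparison, 1.20, with 11 of 12 genes higher and 10 without overlap. Markers of some leukocytes had a higher mean in the same comparison, 3 of 3 tested for T cells (median log2 fold change 1.10) and 5 of 5 for B cells (0.82). For macrophages and monocytes it was 11 of 12 (0.89). Neutrophil markers were split, with 2 of 4 tested higher (median -0.042), and none in these lists was called. T cell markers summed to 1.23 to 1.30 FPKM in controls, 1.48 to 12.9 with AOS, 1.40 to 2.86 with busulfan and 2.64 to 3.26 with busulfan plus AOS. B cell markers summed to 2.26 to 3.49, 1.57 to 33.8, 1.55 to 3.39 and 4.67 to 13.4 FPKM in the same order, with AOS replicate 2 the highest of the 12 libraries for both lists. Their part in the results was not tested. Itgb2, the beta-2 integrin chain that binds ICAM-1, was at 2.61 ± 0.908 FPKM in controls, 4.17 ± 2.31 with AOS, 3.92 ± 1.82 with busulfan and 8.43 ± 0.896 with busulfan plus AOS (SD, n = 3 each). Its log2 fold change against control was 1.52 ± 0.37 (SE; edgeR adjusted p = 0.0782). Itga4, the alpha-4 chain that binds VCAM-1, was at 0.317 ± 0.168 FPKM in controls and 1.24 ± 0.250 with busulfan plus AOS (log2 fold change 1.78; edgeR adjusted p = 0.0857). The hyaluronan receptor Cd44 had a log2 fold change of 1.17 for busulfan plus AOS against busulfan. The other adhesion genes of the vessel wall were split. With busulfan plus AOS their median was 0.014 against control, with 6 of 11 tested higher. Against busulfan it was -0.11, with 5 of 11 higher. The junction gene Jam2 was at -0.45 against control, with overlap, and Cd34 at 0.32, higher without overlap. The sialomucin gene Podxl was at -0.56 against busulfan, with overlap.

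Among receptors, all 11 tested had a higher mean with busulfan plus AOS than with busulfan. Tnfrsf1a and Tnfrsf1b, the receptors of tumour necrosis factor, had log2 fold changes of 0.66 and 0.71 for busulfan plus AOS against control (edgeR adjusted p = 0.077 and 0.0736). Tnfrsf1b was at 2.10 ± 0.301 FPKM in controls, 2.43 ± 0.303 with busulfan and 3.90 ± 0.0808 with busulfan plus AOS (SD, n = 3 each). Il18r1, a chain of the interleukin-18 receptor, was at 0.830 ± 0.399 FPKM with busulfan and 3.53 ± 1.69 with busulfan plus AOS (log2 fold change 2.05). Of the inflammasome genes, which act in the release of interleukin-1 beta and interleukin-18, 7 of 8 were higher with busulfan plus AOS than with busulfan. Gsdmd, the pore-forming gasdermin, was at 4.68 ± 0.324 FPKM in controls and 8.22 ± 0.654 with busulfan plus AOS (log2 fold change 0.64; edgeR adjusted p = 0.0736), and Casp4 had a log2 fold change of 0.93 in the same comparison.

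Within signalling, 18 of 23 NF-kappaB genes and 12 of 14 JAK-STAT genes had a higher mean with busulfan plus AOS than with control. Stat3, which carries the interleukin-6 signal and induces Socs3, was at 35.7 ± 2.93 FPKM in controls, 42.6 ± 5.79 with AOS, 44.7 ± 2.82 with busulfan and 53.3 ± 1.02 with busulfan plus AOS (SD, n = 3 each). Its log2 fold change for both treatments against control was 0.39 ± 0.09 (SE; edgeR adjusted p = 0.0736). With busulfan plus AOS the adaptor Myd88 and the kinase Ripk1 differed from control by 0.54 and 0.57 on the log2 scale, and the NF-kappaB inhibitor Tnfaip3 by 0.58 for busulfan plus AOS against busulfan. Of the other ligands, Lif, a cytokine of the interleukin-6 family, was low. It was at 0.243 ± 0.104 FPKM in controls and 0.623 ± 0.179 with busulfan plus AOS (SD, n = 3 each). The log2 fold change of Lif in that comparison was 1.20 ± 0.50 (SE; edgeR adjusted p = 0.133). Ctf1, which codes for cardiotrophin-1 of the same family, was the tested ligand with the smallest p after busulfan alone, at 7.12 ± 0.578 FPKM in controls and 4.77 ± 0.476 with busulfan without overlap (log2 fold change -0.66 ± 0.16 SE; edgeR adjusted p = 0.416). With busulfan plus AOS its log2 fold change was -0.61.

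**Figure D4:**
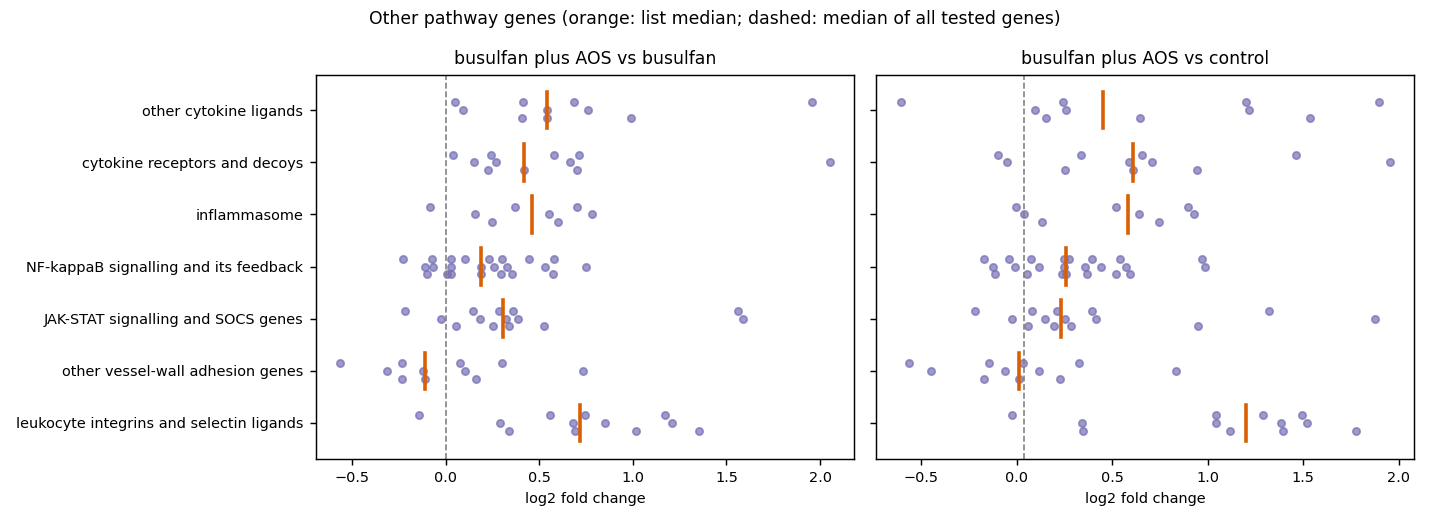
Log2 fold change (horizontal axis) of the 89 tested pathway genes, a point per gene, in 7 lists (vertical axis) for busulfan plus AOS against busulfan (left) and against control (right). Orange bars are list medians, from -0.11 to 0.72 on the left and from 0.014 to 1.20 on the right, and the dashed line is the median of all tested genes.

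The genes whose levels were most like those of the 10 over the 12 libraries were taken as a description, by Pearson correlation of log2 CPM; the libraries share groups and tissue makeup. For Icam1 they were Ptbp1, Smad7 and Chst11 (Pearson r = 0.97 each, Spearman rho = 0.99, 0.96 and 0.95). Vcam1 was most like Arhgef26, Col23a1 and Slc2a10 (Pearson r = 0.98, 0.98 and 0.98, Spearman rho = 0.99, 0.96 and 0.98). Selp was most like Tgfbr2, Vnn1 and Plxnc1 (r = 0.98, 0.97 and 0.96, rho = 0.94, 0.94 and 0.97). For Socs3 the nearest were Itm2a, Sall1 and Lsr and for Nfkbia Atp9b, Vgll4 and Gfpt1, all with r of at least 0.95. Il1b and Sele had no gene above r = 0.87.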

How the data were processed

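The authors deposited estimated counts for each gene, with 19.7% to 22.8% of values in a library more than 0.005 from a whole number. The deposited file also holds a set of expression values, read here as FPKM because for 1097 genes above 50 in every library the implied gene length varied by a median of 0.457%. Per the submitters' processing notes the genome build was mm10. The aligner and counting tool are not given in the sources used. The 8 columns of the authors' group means were not used. Library totals lay between 9929772 and 13620815 estimated counts. The label HBA0 was read as busulfan alone.

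Estimated counts were rounded, filtered with filterByExpr (14687 of 19246 genes kept) and scaled with TMM factors (0.889 to 1.14). All 12 libraries were fitted with group means in edgeR 4.0.16 (R 4.3.3, quasi-likelihood test), with Benjamini-Hochberg adjustment over all genes at 0.05. Standard errors come from the F statistic, and 95% intervals use the test's degrees of freedom. The test was checked on simulated data with 200 changed genes. For busulfan plus AOS against control it recovered 34.5% of 2-fold and 73% of 4-fold changes. For the main effect of busulfan it recovered 60% and 84.5%. Many changes of 2-fold or less would therefore be missed. Overlap was judged on FPKM, which follows library totals. Counts of genes with a higher or lower mean follow the sign of the edgeR log2 fold change. Between 3 libraries and 3, an exact permutation test cannot go below p = 0.1 and was not used. Replicate numbers were not taken as pairs, and whether they pair the libraries was not settled. Named genes were the 10, the 2 genes of each pathway list with the smallest p per comparison, up to 4 markers per list and the 3 nearest genes of each, and gene models without a symbol were not named. The genes and lists were chosen with earlier results of these data known. Alternatives were DESeq2 1.42.0, RLE factors, library totals, no filter, a replicate block, the compared groups alone, limma 3.58.1 with library weights, atrium or endothelium markers as a covariate, CPM in place of FPKM, and each library left out. Positions and sequences are from RefSeq, GRCm38.p6, matched on the gene identifier (10 of 10 positions).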

Additional observations from a re-analysis of the deposited data

How the results depend on the processing

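For busulfan plus AOS against control, 45 genes passed in edgeR; 2353 passed in DESeq2, 16 with no filter, 422 with the compared groups alone, 364 with library weights, 2 with the atrium and 1100 with the endothelium covariate, and 0 to 2546 with 1 library left out (0 without control replicate 1 or busulfan plus AOS replicate 1, 2546 without AOS replicate 2, and 24 or fewer without any of the other 9). Of the 10 genes, 0 passed; 3 passed in DESeq2, 1 with the compared groups alone, 1 with library weights, 2 with the endothelium covariate and 0 to 2 with 1 library left out, the 2 being Icam1 and Nfkbia without AOS replicate 2. For the main effect of busulfan 23 genes passed, 20 higher and 3 lower, against 569, 350, 215 and 818 with DESeq2, the atrium covariate, the endothelium covariate and library weights, 5 with library totals, all 5 higher, and 1 to 345 with 1 library left out (1 without control replicate 1, 345 without AOS replicate 2); Icam1, 1 of the 10, passed with library weights, and 0 to 1 of the 10 with 1 library left out. For busulfan plus AOS against AOS 3 genes passed, against 153 in DESeq2, 286 with library weights, 1 with the compared groups alone, 0 with the atrium covariate, with library totals or with no filter, and 0 to 1 with 1 library left out; Icam1 passed with library weights (1 of the 10). For busulfan against control 0 passed, against 50, 127, 21 and 3 with DESeq2, the atrium covariate, the endothelium covariate and the compared groups alone, and 0 to 4 with 1 library left out. For AOS against control 0 passed, against 6 in DESeq2 and 3 with the atrium covariate. For busulfan plus AOS against busulfan 0 passed, against 52 in DESeq2 and 0 to 1 with 1 library left out. For the main effect of AOS and the interaction 0 passed, against 100 and 5 in DESeq2 and 1 and 1 with the atrium covariate.

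With the replicate number as a block, 26 genes passed for busulfan plus AOS against control, 0 for busulfan plus AOS against AOS and 5 for the main effect of busulfan; the block moved no call among the 10 genes. Deviations of same-numbered libraries correlated by -0.45 to 0.55, over 0.1 in 6 of 18 pairs. Of 12 libraries, 6 correlated best with a library of their own number. The numbers were not taken as pairs, but these values do not settle whether the libraries are paired.

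Since 0 of the 10 genes passed in the main fit, no called result could change sign. Of 1320 values of the tested genes under alternatives, 54 changed sign, and the cause was not tested. With the atrium covariate these were Il18 (-0.15) and Selp (-0.071) for busulfan plus AOS against busulfan, Socs3 for busulfan against control (0.0058), Vcam1 for busulfan plus AOS against AOS (-0.10), the main effect of busulfan (-0.057) and the interaction (-0.088), and Nfkbia for the interaction (-0.087). With the endothelium covariate they were Vcam1 for busulfan plus AOS against AOS (-0.018) and the main effect of busulfan (-0.035), and Nfkbia for the interaction (-0.084). With library weights they were Sele for busulfan (0.029) and AOS (-0.016) against control, Vcam1 for AOS against control (-0.016), and Selp (0.90) and Nfkbia (-0.038) for the interaction. The block turned Il18 (0.029) and Selp (0.57) for the interaction, and library totals Il1b for AOS against control (0.12). With 1 library left out the ranges that crossed 0 were, for AOS against control, -0.020 to 0.53 for Icam1, -0.34 to 0.38 for Il1b, -0.11 to 0.27 for Sele and -0.11 to 0.61 for Vcam1. For busulfan against control they were -0.50 to 0.10 for Sele, -0.28 to 1.39 for Selp, -0.28 to 0.16 for Socs3 and -0.35 to 0.016 for Vcam1. For the main effect of busulfan they were -0.061 to 0.28 for Sele and -0.11 to 0.28 for Vcam1, and for busulfan plus AOS against AOS -0.062 to 0.72 for Vcam1. For the interaction they were -0.55 to 0.28 for Il18, -0.14 to 0.17 for Nfkbia and -0.56 to 1.11 for Selp. Library totals in place of TMM moved the median of all genes from 0.037 to 0.23 for busulfan plus AOS against control. All 24 ratios of group means to control moved by less than 1 SD between FPKM and CPM. At these depths Il6 and Tnf could not be tested.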
